A study of Arabidopsis thaliana with 4 samples.

Results

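The BGAL genes of Arabidopsis thaliana encode beta-galactosidases of glycoside hydrolase family 35, enzymes that take galactose off the ends of sugar chains. Most are secreted into the cell wall. Their known substrates there are the galactan side chains of pectin, the galactose-bearing side chains of xyloglucan and the sugar chains of arabinogalactan proteins. Galactose is lost from walls in many tissues whose cells grow, ripen or separate. The 10 loci described here were listed by identifier, and all were found among the 33602 genes counted: BGAL1 (AT3G13750), BGAL2 (AT3G52840), BGAL3 (AT4G36360), BGAL4 (AT5G56870), BGAL5 (AT1G45130), BGAL8 (AT2G28470), BGAL9 (AT2G32810), BGAL10 (AT5G63810), BGAL12 (AT4G26140) and BGAL17 (AT1G72990). The other 7 genes of the family, which has 17 in all, are given for comparison.

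RNA was counted in 4 libraries of sorted protoplasts. All plants were ebp1 mutants of the Col-0 ecotype and carried proQRT2::nlsGFP-GUS, a nuclear reporter driven by the promoter of QRT2, a polygalacturonase gene used here to mark abscission zone cells, and cells were sorted by its fluorescence. There were 2 libraries of residuum cells (REC), the abscission zone cells of the receptacle, and 2 of secession cells (SEC), those on the separated floral organs. All 4 carry the mutation, so the comparison is between the sides of the break within the mutant, and wild-type cells are not analysed here. Whether the libraries of a group come from different plants is not given in the labels. Each p-value thus takes in only how far these samples differ, and that difference may be technical.

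Counts in genes ranged from 12191718 to 16102115 per library. Levels are CPM, the share of a library's counts scaled to a common total with TMM library sizes, and fold changes are REC minus SEC on the log2 scale. They come from edgeR's quasi-likelihood fit to 18384 genes, with p-values adjusted over all of them and a threshold of 0.05. An interval is the 95% interval of that fit. QRT2, whose promoter chose the cells, was at 493 and 568 CPM on the REC side and at 459 and 694 CPM on the SEC side, so its groups overlapped. In such pools of cells, fewer cells of a type and less RNA per cell cannot be told apart.

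The results turn on BGAL2, BGAL4 and BGAL12, the genes of closest sequence among the 10. Coding sequences were 83.6% identical for BGAL2 and BGAL12, 80.8% for BGAL4 and BGAL12 and 79.7% for BGAL2 and BGAL4, while the lowest identity of the 45 pairs was 60.3%. The stretches below are from the RefSeq coding sequences (TAIR10.1 assembly), 5′ to 3′ in the sense of the gene, and hold the active-site signature of the enzyme family. Capitals mark the codons for the asparagine and glutamate of the signature, the glutamate being the acid/base of catalysis. BGAL1 is added as the member of highest mean level and BGAL17 as a distant one.
BGAL2: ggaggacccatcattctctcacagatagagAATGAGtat
BGAL4: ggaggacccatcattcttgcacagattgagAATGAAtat
BGAL12: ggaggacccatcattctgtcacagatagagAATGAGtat
BGAL1: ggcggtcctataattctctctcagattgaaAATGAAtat
BGAL17: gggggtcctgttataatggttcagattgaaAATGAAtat
All 10 members held the signature once. The longest run of bases that any pair of the 10 shared was 35 nt, in BGAL4 and BGAL12, shown because shared runs decide whether a read can be assigned to one gene.
BGAL4 and BGAL12: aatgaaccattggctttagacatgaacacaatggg
None of the 10 transcripts held a run of 50 bases found at a second place in the genome. The sources used here do not give the read length.

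The beta-galactosidase genes pointed in different directions on the sides of the break, and none of them passed the test. Of the 10, 8 had a positive fold change, toward RECs, and BGAL2 and BGAL4 had a negative one. By edgeR, 0 were called higher in RECs, where 0.495% of all tested genes were called, and 0 in SECs, where 2.18% were. At an unadjusted p under 0.05 there were 4 toward RECs (BGAL1, BGAL9, BGAL10 and BGAL12) and 1 toward SECs (BGAL4), against 9.46% and 14.1% of all tested genes. In 7 members both REC libraries lay above both SEC libraries, as in 29.8% of all tested genes. In 2 members, BGAL2 and BGAL4, both SEC libraries lay above, as in 28.2%. BGAL3 alone overlapped. The median log2 fold change was 1.05 over the 10 members and 0.02 over all genes tested. Over the 5 other BGAL genes that could be tested, all at low levels, it was −0.47. The 10 members were chosen with earlier results of these data known, so 1.05 is not a value for the whole family. With SEC replicate 1 left out the members' median was 0.51, and with SEC replicate 2 left out 1.58.

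**Figure D1:**
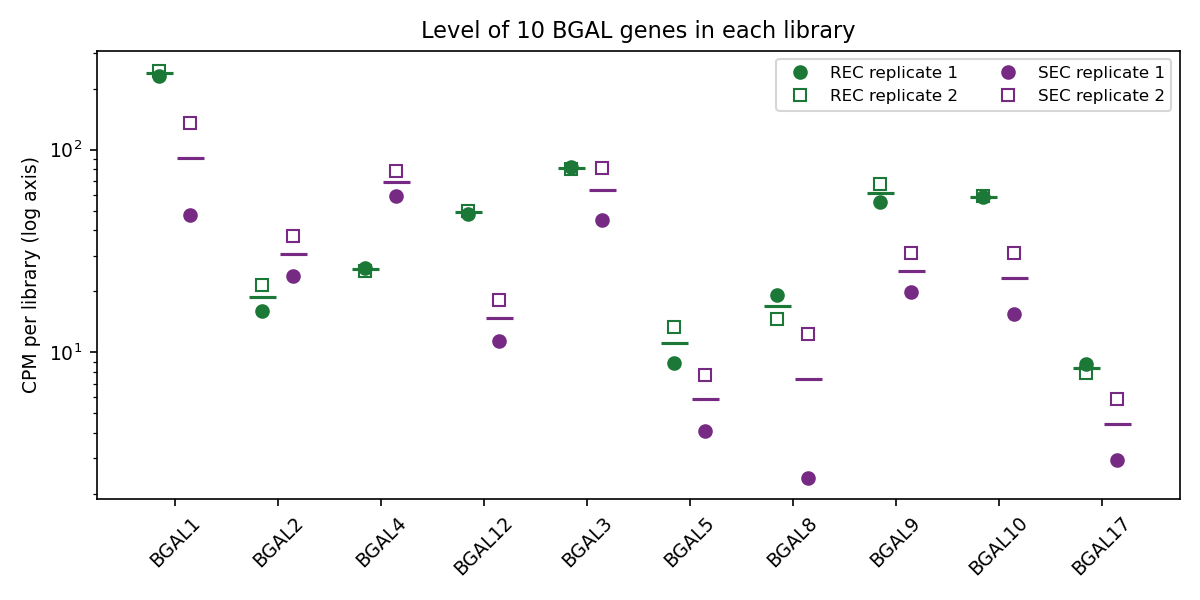
Level of each of the 10 BGAL genes in CPM on a log axis, with 1 point per library and a line at the mean of the 2 libraries of a group. BGAL2 and BGAL4 have both SEC points above both REC points, BGAL3 overlaps, and the other 7 genes have both REC points above both SEC points.

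BGAL4 and BGAL12 were the members furthest apart in fold change, although their sequences are close. BGAL4, like BGAL12 the gene of an enzyme that splits short galactose chains, had 26.2 and 25.3 CPM on the REC side and 59.4 and 78.4 CPM on the SEC side. Both SEC levels exceeded those of RECs, with little spread within the REC pair. The mean was 25.8 ± 0.661 CPM on the REC side and 68.9 ± 13.5 CPM on the SEC side (SD, n = 2), which is 2.67-fold higher in SECs. On the log2 scale that is −1.42 (SE 0.25, interval −2.04 to −0.79, adjusted p = 0.0545 by edgeR).

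BGAL12 had the reverse order. It was at 48.2 and 49.9 CPM on the REC side and at 11.3 and 18.1 CPM on the SEC side, so the groups stood apart. The means were 49.1 ± 1.21 and 14.7 ± 4.78 CPM (SD, n = 2), 3.33-fold higher in RECs. The log2 fold change of 1.73 was the largest of the 10 (SE 0.31, interval 0.96 to 2.51, adjusted p = 0.0557 by edgeR).

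BGAL2, the gene closest to BGAL12 in sequence, lay on the side of BGAL4. It had 15.9 and 21.5 CPM on the REC side and 23.7 and 37.7 CPM on the SEC side. Both SEC values were higher, but SEC replicate 1 was only just over REC replicate 2. The log2 fold change was −0.71 (SE 0.34, interval −1.56 to 0.13, adjusted p = 0.278 by edgeR). It was −1.01 (adjusted p = 0.0018) if SEC replicate 1 was left out, and −0.32 (adjusted p = 0.211) if SEC replicate 2 was.

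The counts of BGAL4 and BGAL12 within one library give a ratio that no scaling of libraries can change. BGAL4 had 0.544 and 0.507 counts per count of BGAL12 for RECs, and 5.23 and 4.33 for SECs. The less abundant gene of the pair was thus BGAL4 in both REC libraries and BGAL12 in both SEC libraries, and the ratio was 9.07-fold higher in SECs by geometric means. The ratio of BGAL2 to BGAL12 behaved alike, at 0.331 and 0.431 in RECs and 2.09 and 2.08 in SECs. BGAL4 against BGAL2 moved less, from 1.64 and 1.18 to 2.51 and 2.08. These ratios were chosen after the values were seen, and with 2 libraries a group the exact two-sided permutation test cannot go below 0.333.

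Exons of BGAL4 are overlapped on the opposite strand by AT5G56880 over 909 of 3812 bases, and the library kit does not mark strand, so reads there are uncertain. The REC libraries held 92 and 94 counts of AT5G56880 and the SEC libraries 34 and 46, while BGAL4 had 334 and 379, and 769 and 1221. The raw counts of AT5G56880 were thus higher in RECs and those of BGAL4 higher in SECs. How reads of the overlap were shared between the 2 genes is not known, and its part in the level of BGAL4 was not tested. For BGAL12 192 of 3171 exon bases are overlapped on the opposite strand by AT4G26145. That gene is not among the genes counted, so its reads there cannot be told from those of BGAL12. The overlap was 53 bases for BGAL9, with AT2G32800, and 35 bases for BGAL8, with AT2G28460.

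**Figure D2:**
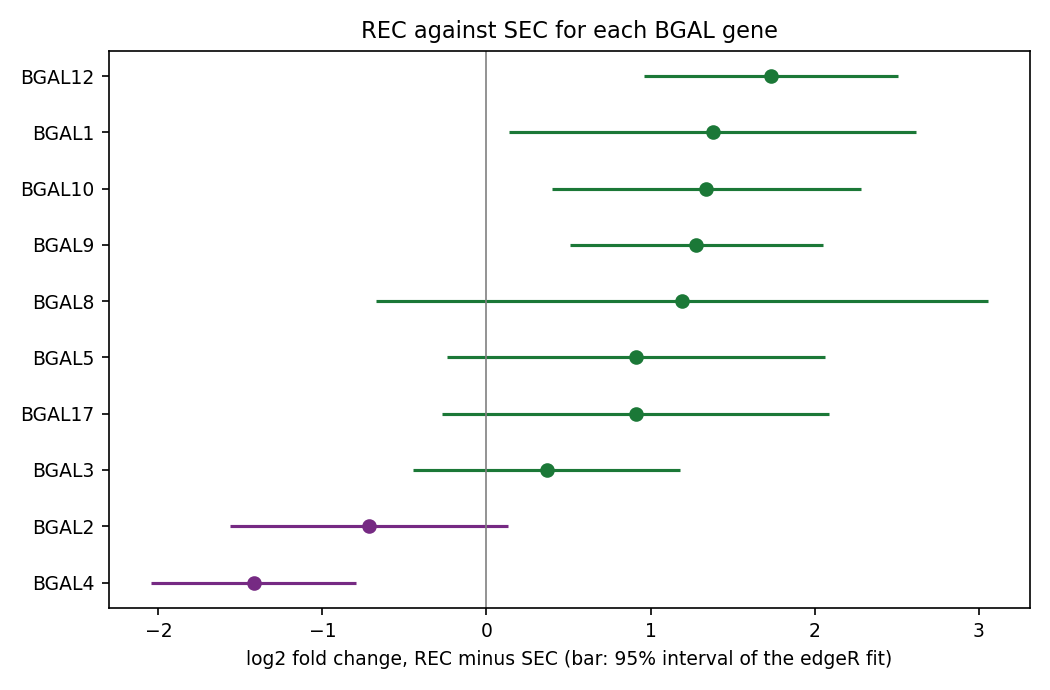
Log2 fold change (REC minus SEC) of the 10 BGAL genes, with the 95% interval of the edgeR fit over 4 libraries. The intervals of BGAL12, BGAL1, BGAL10 and BGAL9 lie above 0 and that of BGAL4 below it, before adjustment over all genes.

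BGAL1 and BGAL3 encode enzymes that act on pectic galactan. BGAL1 had the highest mean level on both sides, at 232 and 244 CPM on the REC side and 47.4 and 135 CPM on the SEC side. The REC pair was tight, while the SEC libraries differed 2.86-fold from each other, and in SEC replicate 1 BGAL4 was above BGAL1. Its log2 fold change was 1.38 (SE 0.49, interval 0.14 to 2.62, adjusted p = 0.176 by edgeR). With SEC replicate 1 left out it was 0.81, and with SEC replicate 2 left out 2.34. BGAL3 had 82.4 and 80.5 CPM on the REC side and 45.2 and 81.0 CPM on the SEC side. SEC replicate 2 thus lay between the REC libraries and SEC replicate 1 stood below them. The log2 fold change of BGAL3 was 0.37 (SE 0.32, interval −0.45 to 1.18, adjusted p = 0.547 by edgeR), and 0.01 without SEC replicate 1.

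BGAL10 and BGAL5 act on xyloglucan, BGAL10 as the main xyloglucan galactosidase of the Arabidopsis wall and BGAL5 in root hairs. BGAL10 was at 58.3 and 59.1 CPM on the REC side and 15.4 and 30.9 CPM on the SEC side, with every REC value above every SEC value. The log2 fold change was 1.34 (SE 0.37, interval 0.40 to 2.28, adjusted p = 0.112 by edgeR). BGAL5 was low, with 8.87 and 13.3 CPM on the REC side and 4.09 and 7.70 CPM on the SEC side. Its groups did not overlap, but the libraries within each pair differed by more than the gap between the pairs (log2 ratio 0.91, SE 0.46, adjusted p = 0.305 by edgeR). Leaving out SEC replicate 1 gave 0.53 and leaving out SEC replicate 2 gave 1.46.

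BGAL9 had 55.3 and 67.6 CPM on the REC side and 19.8 and 30.8 CPM on the SEC side. Its groups stood clear of each other, with a log2 fold change of 1.28 (SE 0.30, interval 0.51 to 2.05, adjusted p = 0.0861 by edgeR). BGAL8 had 19.2 and 14.7 CPM on the REC side and 2.39 and 12.3 CPM on the SEC side. SEC replicate 2 came close to the REC libraries and SEC replicate 1, with 31 counts, was 5.15-fold below it. The log2 fold change of BGAL8, at 1.19 (SE 0.74, interval −0.67 to 3.06, adjusted p = 0.395 by edgeR), came to 0.45 with SEC replicate 1 left out and to 2.83 with SEC replicate 2 left out. BGAL17, with the shortest coding sequence of the family (697 codons), had 8.79 and 7.87 CPM on the REC side and 2.93 and 5.91 CPM on the SEC side. It was among the lowest in every library (log2 ratio 0.91, SE 0.47, adjusted p = 0.316 by edgeR). Its value was 0.49 with SEC replicate 1 left out and 1.51 with SEC replicate 2 left out.

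Levels were compared between genes as CPM per kb of the longest RefSeq transcript. In RECs BGAL1 came first at 68.1 ± 2.45 CPM per kb (SD, n = 2). BGAL3 (24.0), BGAL10 (22.5), BGAL9 (19.1) and BGAL12 (17.2) followed, of which BGAL9 and BGAL12 overlapped. BGAL2 (7.10), BGAL4 (6.76), BGAL8 (4.85), BGAL5 (4.12) and BGAL17 (3.17) were the lower members of the order, where BGAL2 overlapped BGAL4, BGAL8 overlapped BGAL5, and BGAL5 overlapped BGAL17. In SECs BGAL1 (26.2 ± 17.8), BGAL3 (18.6 ± 7.47) and BGAL4 (18.1 ± 3.53) headed the order, and their ranges overlapped. BGAL4 thus had rank 7 in RECs and rank 3 in SECs. The next genes in SECs were BGAL2 (11.6), BGAL10 (8.88), BGAL9 (7.87) and BGAL12 (5.15 ± 1.67), each overlapping its neighbour except that BGAL4 stood clear of BGAL2. The higher SEC value of BGAL2, 14.3, was above the lower ones of BGAL1 (13.6) and BGAL3 (13.3), so BGAL2 overlapped both of them. BGAL12 had rank 5 in RECs and rank 7 in SECs, where it lay clear of BGAL5 (2.19), BGAL8 (2.11) and BGAL17 (1.68), which overlapped. With coding length in place of transcript length, a choice made after the data were seen, BGAL4 was at 11.8 CPM per kb in RECs and 31.7 CPM per kb in SECs, rank 6 and rank 2.

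The make-up of the family's counts is given by library, with no test. BGAL1 made up 41.2% and 41.3% of all BGAL counts of the REC libraries, and 19.4% and 30.1% of the SEC libraries. BGAL4 took 4.67% (exact 95% interval 4.19 to 5.18) and 4.28% (3.87 to 4.73) in RECs, and 24.3% (22.8 to 25.8) and 17.4% (16.5 to 18.3) in SECs. Intervals cover counting error only, since amplified reads without molecular identifiers are not independent molecules. BGAL2 held 2.84% and 3.64% in RECs and 9.69% and 8.37% in SECs. Both genes with negative fold changes thus held larger shares in both SEC libraries than in either REC library. BGAL12 held 8.58% and 8.46%, then 4.64% and 4.02%, and BGAL10 held 10.4% and 10.01%, then 6.31% and 6.86%. BGAL3 held 14.7% and 13.6% in RECs and 18.5% and 18.0% in SECs, although its log2 fold change was 0.37, toward RECs. Shares of one library are tied to each other, so where that of BGAL1 is smaller, others are larger without a higher level. The SEC libraries differed from each other most for BGAL1 and BGAL4. The summed level of the 10 members was 555 and 584 CPM on the REC side and 232 and 438 CPM on the SEC side.

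**Figure D3:**
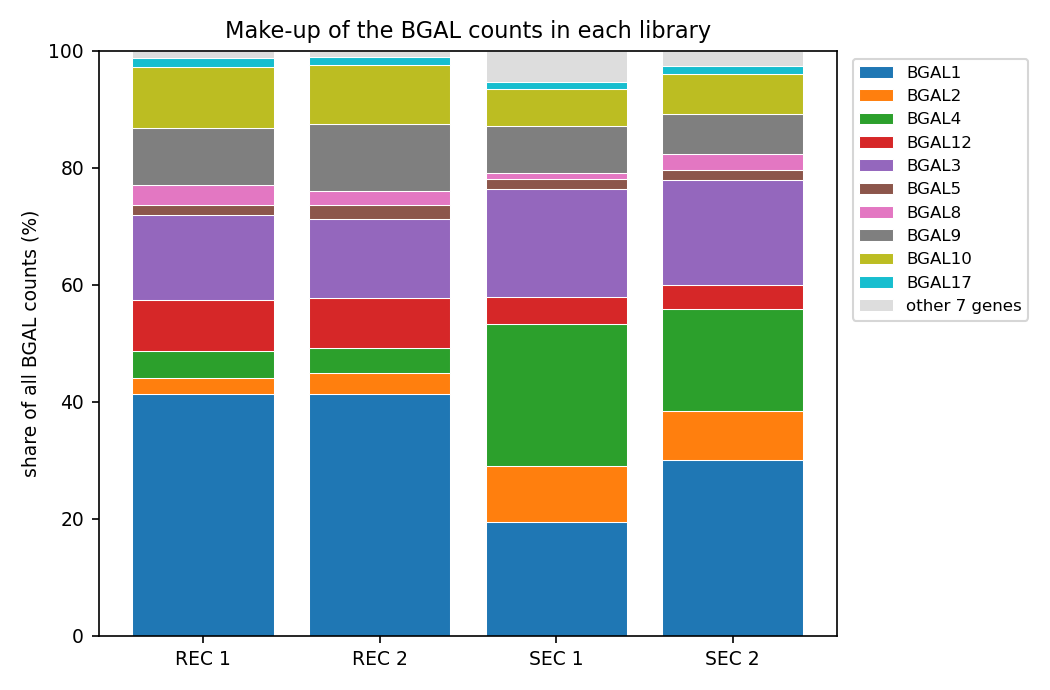
Share of all BGAL counts (%) taken by each gene in each library, with the 7 genes outside the list pooled. BGAL4 is at 4.67% and 4.28% in the REC libraries and at 24.3% and 17.4% in the SEC libraries, while BGAL1 is at 41.2% and 41.3%, then 19.4% and 30.1%.

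The other 7 genes of the family were at low levels, where a count of 0 allows a level of up to 0.193 to 0.236 CPM (3 counts, by library). BGAL16 had the highest mean of them in SECs, at 1.73 and 2.33 CPM on the REC side and 3.94 and 7.06 CPM on the SEC side (log2 ratio −1.43, SE 0.55, adjusted p = 0.198 by edgeR). BGAL6 (MUM2), which acts in seed coat mucilage and lies near BGAL10 with 1 gene between them, had 2.12 and 0.534 CPM on the REC side and 5.25 and 2.38 CPM on the SEC side. At −1.52 (SE 0.88, adjusted p = 0.363 by edgeR) its log2 fold change was opposite in sign to that of BGAL10. BGAL7, BGAL11 and BGAL14 overlapped between the groups, and BGAL7 had 24 counts in SEC replicate 2 and 0 in SEC replicate 1. BGAL15 had 6 counts in each REC library and 0 in each SEC library, and was too low to test. BGAL13, known from pollen, had 0 counts in all 4 libraries.

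SEC replicate 1 was low in long transcripts, and the members have transcripts of 2608 to 3812 nt. On the log2 scale, SEC replicate 1 over SEC replicate 2 had a median of 0.65 over tested genes of 501 to 1000 nt and of −0.99 over those of 3501 to 4000 nt. Among the 2505 tested genes in the members' range of lengths the median was −0.67, and among the 10 members it was −0.84, from −0.40 for BGAL4 to −2.37 for BGAL8. All 10 members were thus lower in SEC replicate 1 than in SEC replicate 2. The same medians for REC replicate 1 against REC replicate 2 were −0.05 and −0.04. Over the 2505 genes of that length range the median log2 fold change between RECs and SECs was 0.23, against 1.05 for the members. BGAL4, the member furthest toward SECs, had the longest RefSeq transcript of the 10, at 3812 nt, but a coding sequence of 2175 nt. Its value of −0.40 between the SEC libraries compares with the median of −0.99 for tested genes of 3501 to 4000 nt. For those of 2001 to 2500 nt the median was −0.23. The part of transcript length in the fold changes of the members was not tested.

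**Figure D4:**
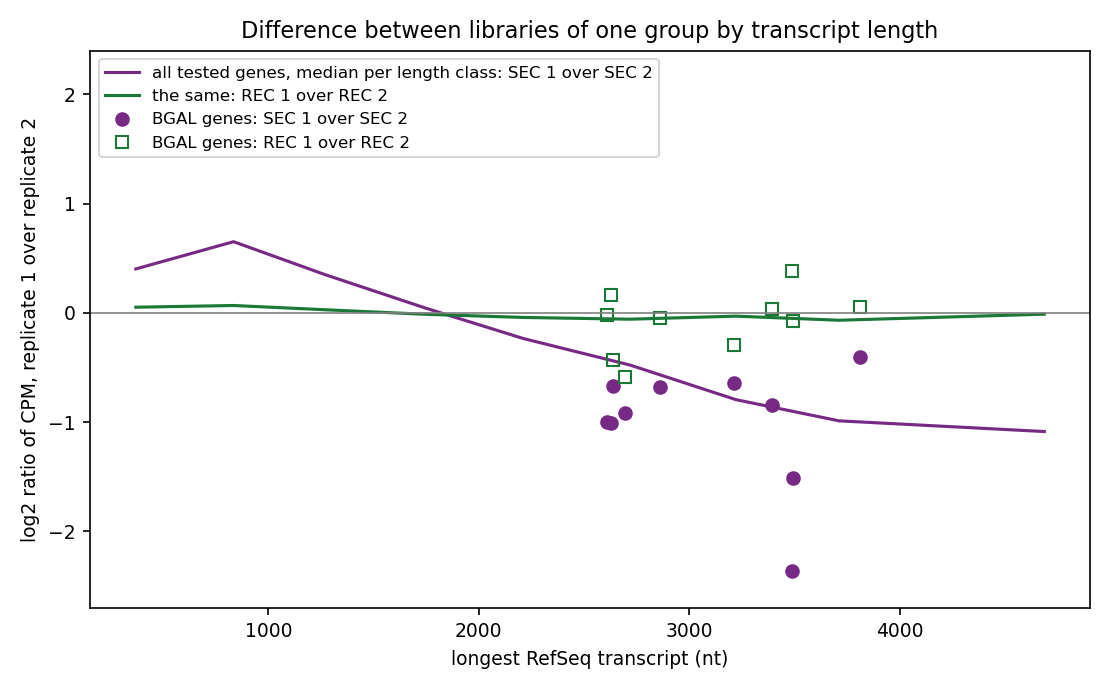
Log2 ratio of CPM between the 2 libraries of a group against transcript length in nt, as medians of all tested genes in 9 length classes (lines) and as single BGAL genes (points). The SEC line is highest at 501 to 1000 nt (0.65) and falls from there to −0.99 at 3501 to 4000 nt and −1.09 above 4000 nt. All 10 SEC points lie below 0, while the REC line stays near 0.

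The direction of each of the 10 members was the same in all the fits shown in the plot of settings, and the calls were not. With the length trend of each library removed, BGAL1, BGAL9, BGAL10 and BGAL12 were called higher in RECs and BGAL4 in SECs, where 4.76% and 9.41% of all genes were called. Their log2 fold changes were then 1.24, 1.05, 1.23, 1.55 and −1.75, with adjusted p between 0.00812 and 0.0251. DESeq2 called the same 5 genes, against 4.15% and 8.56% of all genes, with adjusted p between 0.000153 and 0.0236. Without the filter on low counts BGAL12 (adjusted p = 0.028) and BGAL4 (adjusted p = 0.0339) were called by edgeR, against 1.21% and 3.61%. With limma voom 0 members were called (background 0.495% and 1.75%), as with upper-quartile scaling (0.473% and 1.38%).

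Leaving out REC replicate 1 or REC replicate 2 gave 0 calls among the members, where 0.146% and 0.397% of all genes were called higher in RECs and 0.448% and 1.30% in SECs. Leaving out SEC replicate 1 gave 4 members higher in RECs and 2 in SECs, where 18.7% and 20.0% of all genes were called, and leaving out SEC replicate 2 gave 8 and 1, where 29.4% and 26.1% were. These fits take the spread from the pair that is left, so the lone library of the other group is assumed to vary like it. BGAL4 was at −1.61 without SEC replicate 1 and at −1.19 without SEC replicate 2, and BGAL12 at 1.44 and 2.12.

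**Figure D5:**
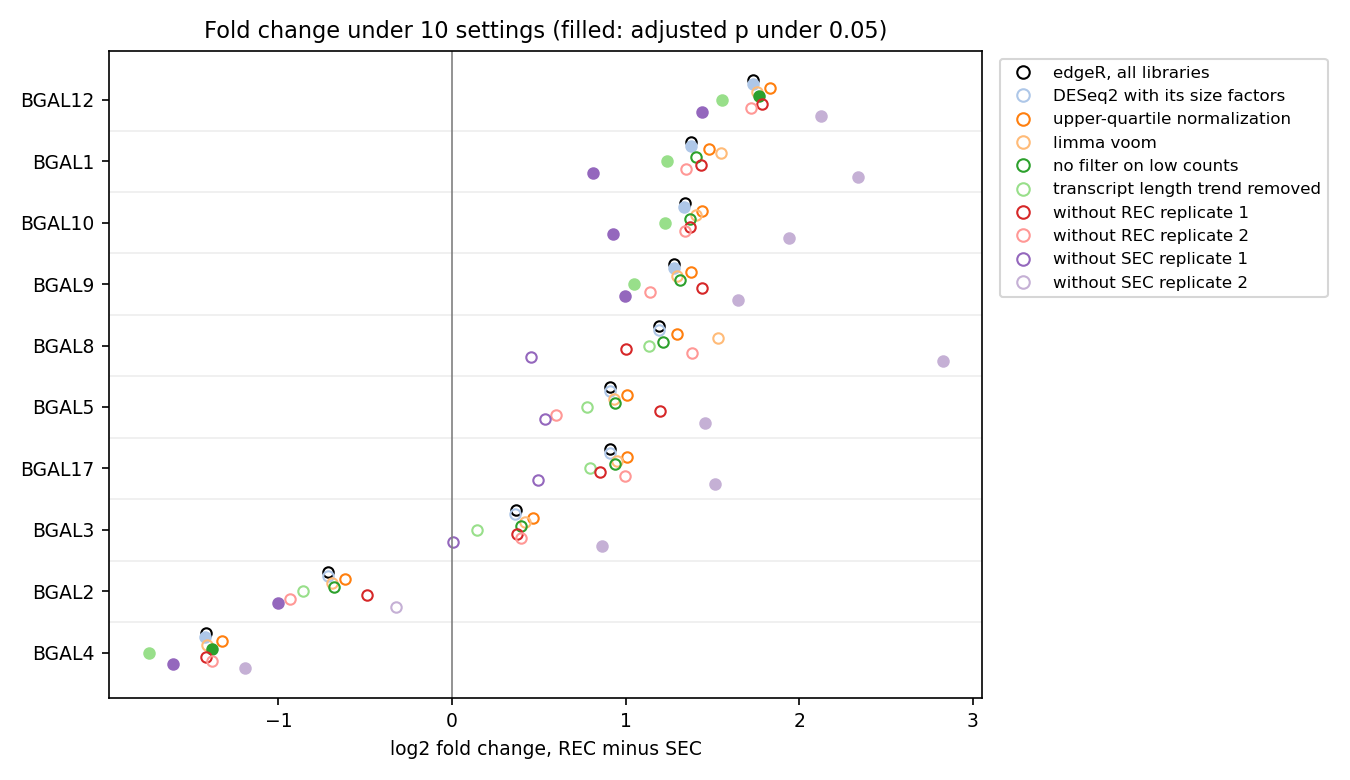
Log2 fold change (REC minus SEC) of the 10 BGAL genes under 10 settings, filled where the adjusted p is under 0.05. Each gene keeps its side of 0, the points of BGAL8 and BGAL1 spread most with the SEC library left out, and BGAL3 reaches 0.01 without SEC replicate 1.

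Other genes for the same sugars were set beside the family, and by edgeR 0 genes of the 5 lists were called, with the counts at an unadjusted p under 0.05 given for each list. Over all 18384 genes tested, 9460 had a positive fold change, 9.46% and 14.1% passed that unadjusted p toward RECs and SECs, and DESeq2 called 4.15% and 8.56%. The counts in lists of 5 to 11 tested genes are to be read against those shares. Genes of enzymes that trim xyloglucan together with BGAL10 all lay toward RECs, as 5 of 5 tested, with a median log2 fold change of 0.83. That median was 0.65 with SEC replicate 1 left out, 1.21 with SEC replicate 2 left out and 0.70 with the length trend removed. AT5G20940 of these had 7 to 43 counts a library, and 2041 of its 2211 exon bases are overlapped on the opposite strand. XYL1, the alpha-xylosidase of that set, had 385 and 365 CPM on the REC side and 163 and 205 CPM on the SEC side (log2 ratio 1.03, SE 0.20, adjusted p = 0.0614). AT5G20950, a glycosyl hydrolase family gene, had 281 and 308 CPM on the REC side and 167 and 187 CPM on the SEC side (log2 ratio 0.73, SE 0.18, adjusted p = 0.0899). There were 3 toward RECs and 0 toward SECs at the unadjusted p, and DESeq2 called 2 and 0. With the length trend removed 1 and 0 were called, where 4.76% and 9.41% of all genes were. Genes of xyloglucan synthesis had 10 of 11 positive fold changes, a median of 0.75, 4 and 0 at the unadjusted p, and 2 and 0 called by DESeq2. Their median was 0.41 with SEC replicate 1 left out, where 12 genes passed the filter, so the set of genes differed. It was 0.79 over 11 genes with SEC replicate 2 left out. With the length trend removed it was 0.65 over 11 genes, with 2 and 0 called. Of the synthesis genes, CSLC4, a synthase of the glucan backbone, had 37.8 and 40.7 CPM on the REC side and 16.8 and 19.2 CPM on the SEC side (log2 ratio 1.124, adjusted p = 0.0731). XXT2, a xylosyltransferase gene, had 82.5 and 85.3 CPM on the REC side and 48.9 and 40.8 CPM on the SEC side (log2 ratio 0.90, adjusted p = 0.0872).

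The list of pectic galactan synthesis and UDP-galactose supply lay near 0, with a median log2 fold change of −0.08 over 9 tested genes, 0 toward RECs and 3 toward SECs at the unadjusted p, and the same numbers called by DESeq2. That median was 0.007 with upper-quartile scaling, the opposite sign, −0.20 with SEC replicate 1 left out and −0.22 with SEC replicate 2 left out. It was −0.19 with the length trend removed, where 0 genes were called toward RECs and 3 toward SECs. The genes with the smallest p were those of UDP-glucose 4-epimerases, which make UDP-galactose. UGE1 had 71.6 and 73.1 CPM on the REC side and 153 and 136 CPM on the SEC side (log2 ratio −0.999, SE 0.19, adjusted p = 0.0635). UGE3 had 15.3 and 13.9 CPM on the REC side and 45.1 and 29.7 CPM on the SEC side (log2 ratio −1.35, SE 0.30, adjusted p = 0.0797). Both lay toward SECs. In 4 genes of the list both SEC libraries lay above both REC libraries, as in 28.2% of all tested genes. GALS1, GALS2 and URGT2 had the reverse order, as 29.8% of all tested genes did, and the other 2 overlapped. Galactosyltransferases of arabinogalactan had a median of 0.60 over 10 tested genes, with AT4G32120 at 1.15 and AT1G74800 at 1.94 (adjusted p = 0.109 and 0.116). The median was 0.27 with REC replicate 1 left out, where 11 genes passed the filter, so the set of genes differed. It was 0.29 over 10 genes with SEC replicate 1 left out, and 0.45 over 10 with the length trend removed. Other wall exoglycosidases and galactose salvage genes had a median of 0.40 over 8, with the beta-xylosidase gene BXL1 at 0.74 and the alpha-galactosidase gene AGAL1 at 1.13 (adjusted p = 0.0994 and 0.18). With SEC replicate 1 left out that median was 0.03, as over all genes, and with SEC replicate 2 left out 0.63. Each of these lists had 2 genes toward RECs and 0 toward SECs at the unadjusted p, and DESeq2 called 0 genes in the list of galactosyltransferases and 1, toward RECs, in the other. With the length trend removed, 0 genes of the latter were called toward RECs and 1 toward SECs. The lists come from the same fit as the BGAL genes and so from the same SEC libraries.

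Markers of other cell types moved with the groups in part. The summed level of 5 mesophyll markers was 4392 and 3575 CPM on the REC side and 3476 and 2798 CPM on the SEC side, and RBCS2B and CA1 of these were called higher in RECs by edgeR (adjusted p = 0.0267 and 0.0341). LHCB3 and GAPA were not called, with log2 fold changes of 1.45 and 0.25. RBCS1A was near 0, at −0.02, and its groups overlapped. The 3 phloem markers summed to 9.26 and 9.34 CPM on the REC side and to 3.32 and 0.642 CPM on the SEC side, with APL at 0. The 5 pollen markers summed to 0.314 and 0.267 CPM on the REC side and to 4.63 and 2.50 CPM on the SEC side, with SKS12 at 0, and AT5G45880 gave 39 and 37 counts in SECs. The 4 xylem markers summed to 0.926 to 3.08 CPM over all libraries, with XCP2 at 0. Both nectary markers, SWEET9 and CRC, were at 0 in every library, as were FAMA and TGG2 among the 3 guard and myrosin cell markers. TGG1 had 7 counts in REC replicate 1 and none elsewhere. The 5 abscission zone markers were read in every library, at a summed 867 to 1361 CPM, and ADPG2 and IDA among them were called higher in SECs (adjusted p = 0.0267 and 0.0341). The receptor kinase genes HAE and HSL2 had positive log2 fold changes, 0.80 and 0.35 (adjusted p = 0.283 and 0.597). HAE was at 440 and 460 CPM on the REC side and at 160 and 355 CPM on the SEC side without overlap, and HSL2 overlapped. The part of these cell types in the levels of the BGAL genes was not tested.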

How the data were processed

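The authors deposited 1 file of raw read counts per gene for each sample, in whole numbers, with the counter's 5 closing lines, which stayed out of all totals (records in no gene made up 46.8% to 47.7%, records of more than one alignment 5.64% to 7.48%). The submitters' processing notes list TopHat2 2.0.9 and the TAIR10 build, HTSeq 0.6.1, and also Trimmomatic 0.32.3, FastQC 0.11.2, bcl2fastq 1.8.4, Picard 1.119 and DESeq2. Neither the gene annotation nor the strand setting is given in the sources used here. Per the labels' protocols, plants grew at 22°C with 16 h of light, and cDNA was amplified over 18 cycles with a low-input kit before library making with a kit that does not mark strand. The promoter in the genotype label has another number in each sample (QRT2, QRT3, QRT4, QRT5), and the design text's QRT2 was taken. The mutant name stands in the titles. Depth sets the limit of a count of 0, 3 counts, at 0.193 to 0.236 CPM.

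Groups come from the sample titles. The test was edgeR 4.0.16 under R 4.3.3 (TMM, filterByExpr, glmQLFit, glmQLFTest, group as the only term, two-sided, Benjamini-Hochberg over 18384 genes). Standard errors are |log2 fold change| divided by the root of F. Alternatives were DESeq2 1.42.0, limma 3.58.1 (voom), upper-quartile scaling, no filter on low counts, a lowess trend (span 0.3) of log2 CPM on transcript length removed by offsets, leaving out each library, and a replicate term.

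Lengths, products, overlaps and sequences came from RefSeq (TAIR10.1), matched by locus for 32827 genes. That build differs in name from TAIR10, so no coordinates are given. Of 93 listed genes, 80 carry the listed name in RefSeq, and others are named by locus. The named genes are the 10 members and the rest of the family, and the 2 genes of smallest p in each other list, since none was called. Members and lists were chosen with earlier results of these data known.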

Additional observations from a re-analysis of the deposited data

How the results depend on the processing

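The 10 BGAL genes kept the sign of their fold change in each of the 10 alternatives run. Their calls changed with the setting, and so did those over all genes. All genes called higher in RECs and in SECs numbered 91 and 400. They were 763 and 1574 by DESeq2 (32.6% of calls in RECs, against 18.5%), 280 and 836 without the filter, 874 and 1729 with the length trend removed (33.6%), and 254 in SECs with upper-quartile scaling. Leaving out 1 library gave 28 to 5630 and 86 to 4991. BGAL genes called, 0 and 0, were 4 and 1 by DESeq2, 1 and 1 without the filter, 4 and 1 with the length trend removed, and 0 to 8 and 0 to 2 without 1 library. The cause of these differences was not tested. Each fit without a library takes its spread from the pair that is left. The replicate block gave 526 and 1161 calls over all genes (31.2% in RECs) and 4 and 1 among BGAL genes (BGAL1, BGAL9, BGAL10, BGAL12; BGAL4). The deviations of same-numbered libraries correlated at 0.0384 over 18384 genes, with 2 pairs and nothing in the labels that ties the numbers, so they share only a number. Signs turned for low genes outside the list. BGAL7 (0.003) was −0.29 without REC replicate 2, −0.96 without SEC replicate 1 and 6.43 without SEC replicate 2, where its only SEC count is 0. BGAL11 (−0.47) ranged from −1.59 to 0.55 with 1 library left out, and was 0.19 without REC replicate 1 and 0.55 without SEC replicate 1. BGAL14 (0.46) was −0.0467 with the length trend removed, −0.33 without REC replicate 1, −0.36 without SEC replicate 2 and 2.43 without SEC replicate 1. Coding length moved the CPM per kb of BGAL4 by more than the SD on both sides. The 10 members had 31 counts or more in each library, and there were 2 libraries a group.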
